A study of Mus musculus with 4 samples.

Results

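Rsrc2, Rsrc1, Srsf1, Srsf2, Srsf3, Srsf5, Srsf6, Srsf7, Tra2a and Tra2b encode proteins rich in serine and arginine that take part in the splicing of messenger RNA. These 10 of the 37074 names on a mouse expression array were taken by symbol, and each of their 26 probes (of 56605) was read apart, in gene order. Rsrc2 was selected on the log2 fold change of 2 of its probes between the groups compared here, so the Rsrc2 values are a description without a test. The cells were GC-1, a line immortalised from mouse spermatogonia, and all of them were transfected and harvested after 48 h. One group received a pCMV plasmid in which the CMV promoter drives murine Hdac6 with a myc/DDK tag, and the other received the empty vector. Each group had 2 arrays, numbered 1 and 2, and the labels do not tell whether these were separate cultures. Any p-value therefore measures the spread between these samples alone, and that spread may be technical. Hdac6 is a mostly cytoplasmic deacetylase whose best known substrate is tubulin.

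SR proteins join an RNA-binding part to a tail of serine and arginine repeats. They bind enhancer sequences in exons and help the spliceosome to recognise the neighbouring splice sites, and phosphorylation of the tail by kinases such as Srpk1 and Clk1 moves them between nuclear speckles and active genes. Several SR genes also make alternative transcripts that hold early stop codons and are destroyed by nonsense-mediated decay, through which the proteins limit their own level. Probes along such a gene can therefore read different transcripts.

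The probes that carry the main pattern lie at the 5′ side of Rsrc2, on the minus strand of chromosome 5 (mm9), at chr5:124192190-124192249 and chr5:124192133-124192192. Another probe is shown for contrast, at chr5:124179316-124180473. Capitals mark the bases that the first pair shares.
Rsrc2 probe 1: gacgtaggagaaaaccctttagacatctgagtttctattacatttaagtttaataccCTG
Rsrc2 probe 2: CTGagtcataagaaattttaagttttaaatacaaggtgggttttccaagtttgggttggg
Rsrc2 probe 5: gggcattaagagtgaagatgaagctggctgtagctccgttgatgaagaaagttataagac

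Joined over their 3 shared bases, the pair reads 117 continuous bases. In this stretch the 3 forward frames hold 2, 4 and 3 stop codons. Neither polyadenylation signal searched on the printed strand, AATAAA or ATTAAA, occurs in it, while 9.77% and 3.86% of all probes hold them. The files list the pair under Ensembl transcripts of Rsrc2, probe 1 at base 1781 of ENSMUST00000182612 and probe 2 at base 1745 of ENSMUST00000183253, and not under NM_001005525, the RefSeq mRNA that probes 5 and 6 read. Probe 5 covers 1158 bases of the genome with 60 bases of sequence. It therefore crosses an exon junction and skips 1098 bases. Whether the pair lies in an exon or an intron of the mm9 gene model was not analysed here.

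On the arrays as a whole, 61.0% to 66.4% of the spots were well above background, which is the scanner software's own call, and processed signal at the 75th percentile of probes was 453.1 to 815.0. With 2 arrays a group, their number limits the precision. The arrays do not fall by group. The closest pair was empty vector 2 with Hdac6 vector 1, whose median absolute log2 difference was 0.19 over all tested probes and 0.16 over the 19 tested probes of the genes other than Rsrc2. The 2 empty vector arrays differed by 0.29 and 0.21 on these measures, and the 2 Hdac6 vector arrays by 0.33 and 0.35. The 1 Hdac6 probe, at chrX:7507249-7507308, read 3.31 and 2.83 with the empty vector, against 2.62 and 3.24 with the Hdac6 vector (log2 units explained below), or 0.908-fold (95% interval 0.578 to 1.43, limma adjusted p = 1.00). It holds the letters AATAAA at base 34. Whether the plasmid's insert holds the sequence that this probe reads was not analysed here, and the probe is not used as a check of the vector. Of 16 spermatogonial markers, 9 were well above background on all 4 arrays, Zbtb16, Id4 and Sall4 among them, and Gfra1, Ret, Nanos2, Kit, Stra8, Dazl and Ddx4 were not. All 7 peritubular and fibroblast markers, 5 of 8 Sertoli, 2 of 6 Leydig and 4 of 5 macrophage markers were also detected. The summed macrophage marker signal, in units of the array's 75th percentile, was 26.8 and 16.2 with the empty vector, against 14.0 and 11.8 with the Hdac6 vector. The Leydig sum was 10.3 and 8.36 against 6.87 and 7.33, while the Sertoli, spermatogonial and fibroblast sums overlapped between the groups. The part of these markers in the values that follow was not tested.

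Levels are given as log2 processed signal minus that array's 75th percentile over all probes that are not controls. Levels of different probes are not comparable with each other, because each probe binds with its own strength. Rsrc2 probe 1 stood at -5.52 and -5.99 with the empty vector, against -1.53 and -1.87 with the Hdac6 vector. As processed signal this was 14.6 and 10.9 against 283.0 and 124.2. It was well above background on empty vector 1 but not on empty vector 2, and entered the fit through the Hdac6 vector arrays, so its fold rests on a signal at the edge of detection. Probe 2, its neighbour, stood at -4.17 and -4.44 with the empty vector, against -0.46 and -0.60 with the Hdac6 vector. Both probes were thus low on each empty vector array and far higher on each Hdac6 vector array, with no overlap. The difference was 16.7-fold for probe 1 (log2 4.06, SE 0.35, 95% interval of the fold 9.68 to 28.7) and 13.7-fold for probe 2 (log2 3.78, SE 0.30, interval 8.54 to 22.0). Among 35214 tested probes these ranked 1 and 3 by size of rise, which repeats how the gene was selected. With normexp, a background correction that lifts dim signals by an offset, the log2 differences were 1.94 and 2.43. The direction of both held under every scaling. With each array left out, the log2 difference lay between 3.82 and 4.30 for probe 1 and between 3.64 and 3.91 for probe 2. Groups that do not overlap keep their sign when an array is left out, so that direction adds nothing to the selection of the pair.

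The rest of Rsrc2 gave a different picture. Probe 3, 6597 bases farther along the gene at chr5:124185477-124185536, read -0.66 and -0.28 with the empty vector, against 0.12 and -0.80 with the Hdac6 vector. It is listed under another Ensembl transcript, ENSMUST00000182968, and its groups overlapped, at 1.09-fold (95% interval 0.636 to 1.88). Probe 4, at chr5:124183506-124183565, was not well above background on any array and was not tested. The junction probe, probe 5, stood at 2.76 and 3.10 with the empty vector, against 2.98 on each Hdac6 vector array, or 1.04-fold (interval 0.714 to 1.50). Probe 6, nearest the 3′ end at chr5:124179182-124179241, read 3.32 and 3.84 against 3.49 and 3.50, or 0.938-fold (interval 0.630 to 1.40). For both probes of the RefSeq mRNA the Hdac6 vector arrays lay between the empty vector arrays, and the intervals of probes 5 and 6 allow changes of no more than 1.50-fold up and 0.630-fold down.

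**Figure D1:**
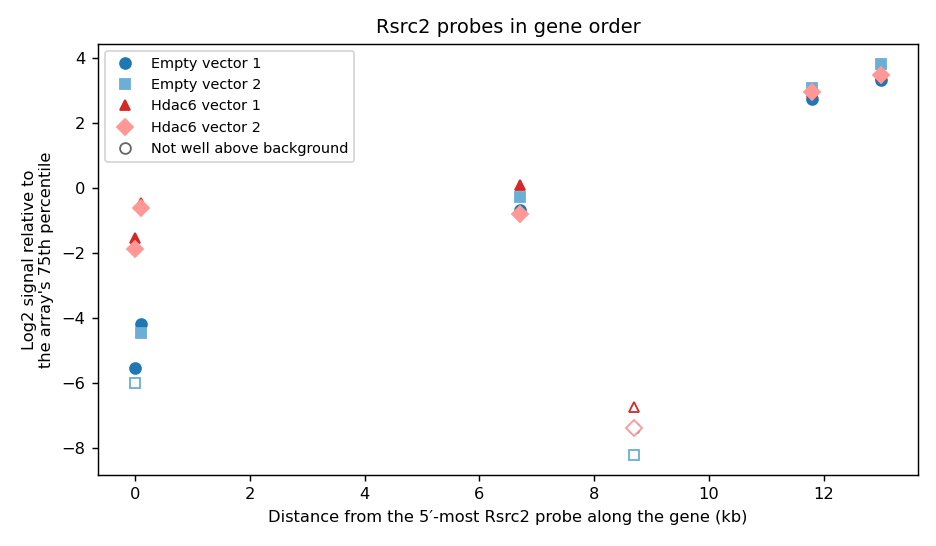
Log2 signal over the array's 75th percentile (vertical axis) of the 6 Rsrc2 probes against distance along the gene in kb from the 5′-most probe (horizontal axis), 1 point per array, open where not well above background. The 2 probes at the left are split by vector, and the 2 at the right, at 11.8 and 13.0 kb, are not.

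A difference taken between probes of one array is not changed by a constant added to all log2 values of that array, as percentile or median scaling does. The mean of the 5′ pair minus probe 3 was -4.18 and -4.94 on the empty vector arrays and -1.11 and -0.43 on the Hdac6 vector arrays. Minus probe 5 it was -7.60 and -8.32 against -3.97 and -4.21, and minus probe 6 it was -8.17 and -9.06 against -4.48 and -4.73. In each case the lowest Hdac6 vector array exceeded the highest empty vector array, by 3.07, 3.39 and 3.44. Within the pair the difference, first minus second, was -1.34 and -1.56 against -1.07 and -1.27, a far smaller movement than that of the pair as a whole. That follows in part from the selection of both probes for their rise. An exact permutation test of 2 against 2 arrays cannot give a two-sided p below 0.333. The spots of the pair lie apart on the slide, in rows 364 and 141, and 0 of their 8 spot values carried a flag for uneven background.

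**Figure D2:**
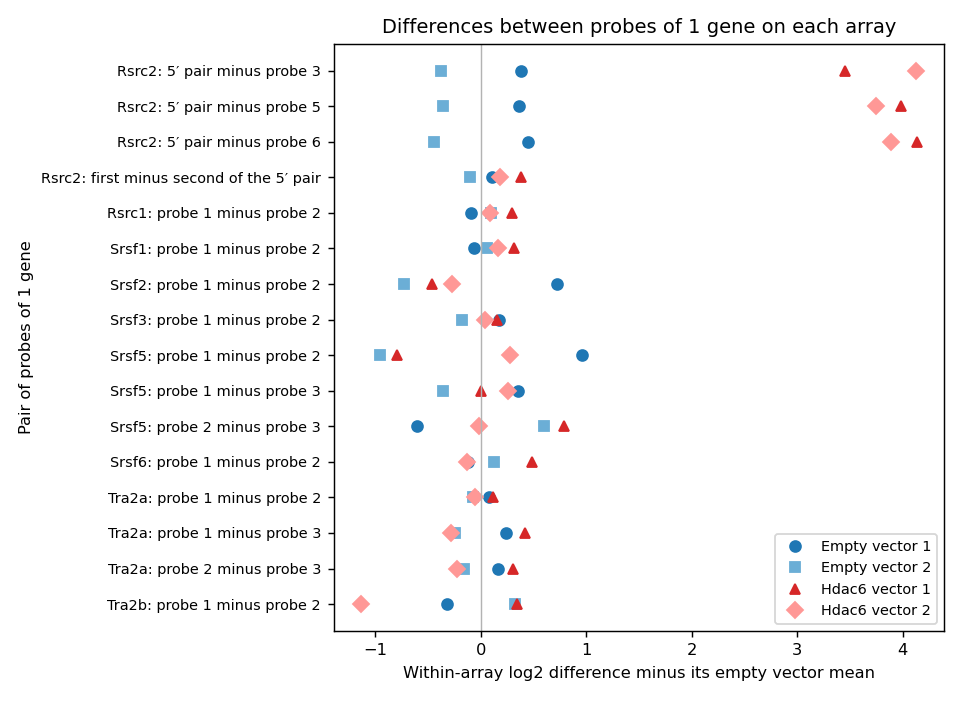
Log2 difference between probes of 1 gene on each array, minus its mean over the empty vector arrays (horizontal axis), for each pair of probes (vertical axis), 1 point per array. The Rsrc2 5′ pair against the other 3 Rsrc2 probes stands near 4 on the Hdac6 vector arrays. The other pairs of probes depart far less from 0, with a spread between arrays of 1 group, as in Srsf5 and Tra2b.

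The same comparison was set against the rest of the array. In 7657 genes with at least 2 tested probes (19375 probes), the log2 fold changes of one gene's probes had a median range of 0.26 and a 95th percentile of 0.86. Rsrc2 had a range of 4.15, with 0 genes above it and 2.89 as the largest range of any other gene. With normexp the Rsrc2 range was 2.52 and 1 gene exceeded it, at 2.85. A high rank again repeats the selection of Rsrc2. For the other members, which were not selected in this way, the range was 0.07 for Tra2a, 0.10 for Srsf3, 0.18 for Srsf6, 0.19 for Rsrc1, 0.24 for Srsf1, 0.37 for Srsf2, 0.39 for Srsf5 and 0.40 for Tra2b. All 8 lay below the 95th percentile of the array. They had 2 or 3 tested probes each and Rsrc2 had 5, and a range can widen with the number of probes. Among 581 pairs of neighbouring probes of one gene within 200 bases, the median absolute difference in log2 fold change was 0.10 and the 95th percentile 0.44, and the Rsrc2 pair differed by 0.28. Both probes of the pair were selected for their rise, so their closeness is partly built in.

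**Figure D3:**
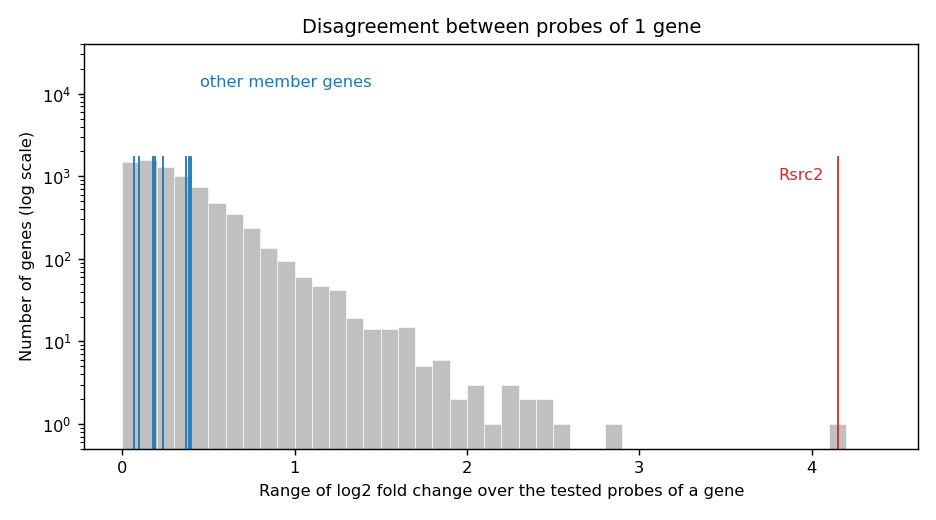
Number of genes (vertical axis, log scale) by the range of log2 fold change over their tested probes (horizontal axis), for 7657 genes with at least 2 tested probes. Rsrc2 (red line) lies at 4.15 and the 8 other genes with several tested probes (blue lines) lie at 0.40 or below.

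Genes beside Rsrc2 were read for comparison. Zcchc8, a zinc knuckle gene of nuclear RNA decay, has probes 29.2 and 30.7 kb away on the 3′ side, at 0.898-fold (95% interval 0.598 to 1.35) and 0.692-fold (0.381 to 1.26). Clip1, a microtubule plus-end binding gene 94.5 kb away on that side, was at 1.14-fold (0.633 to 2.06). On the 5′ side Kntc1, a kinetochore gene on the plus strand 79.2 kb away, was at 0.830-fold (0.561 to 1.23), and its probe at 69.6 kb was not well above background on any array. None of the 4 tested probes of these genes passed (limma adjusted p = 1.00 for each), beside 0.0114% of all tested probes. The groups overlapped for all 4, while they did not overlap for 25.1% of all tested probes. With 4 probes, neither count is a result about these genes.

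The array profiles most like the mean of the Rsrc2 pair were sought over the 4 arrays, by Euclidean distance between log2 profiles centred on their means. Only tested probes of other genes were searched, and those named after a clone or a region were left out. The distance between the 2 Rsrc2 probes was 0.35. The nearest probe of another gene was that of Saa3, at 1.52, followed by Farsa at 1.66, Saa1 at 1.66, Hp at 1.88, Fam135a at 2.03 and Tex26 at 2.12. The Fam135a and Tex26 probes were well above background only on the 2 Hdac6 vector arrays. They entered the search through those arrays, so the filter favoured a rise in them. Saa3 and Saa1 encode acute-phase serum amyloid proteins, Hp haptoglobin and Farsa a subunit of a transfer RNA synthetase. Farsa stood at -3.57 and -4.70 with the empty vector, against -1.54 and -2.01 with the Hdac6 vector. These genes were picked for their likeness over 4 arrays. No probe searched came within the distance that separates the Rsrc2 probes. That follows in part from the selection of the pair for its large rise. By this measure a probe with a smaller rise, such as that of Saa3 (log2 2.53), lies farther away.

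The other 9 genes had 20 probes, of which 19 were tested. Of these, 0 passed limma's threshold of an adjusted p under 0.05 (adjusted p = 1.00 for each). Over the whole array 4 of 35214 tested probes passed, a share of 0.0114%, the Rsrc2 pair among them by its selection, beside which 0 of 19 is no result about these genes. An unadjusted p under 0.05 was reached by 648 probes. The groups did not overlap for 3 of the 19, beside 25.1% of all tested probes. Of the 19 probes 15 were higher and 4 lower with the Hdac6 vector, with a median log2 fold change of 0.10, beside 18669 of 35214 higher and a median of 0.02 over the array. The median of the 19 was 0.01 with median scaling and -0.08 without Hdac6 vector 2. The sign held under every scaling for 13 of the 19 and with each array left out for 4, so no direction is given for single SR genes below. The widest interval bounds over the 19 probes were log2 -1.21 and 1.23.

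**Figure D4:**
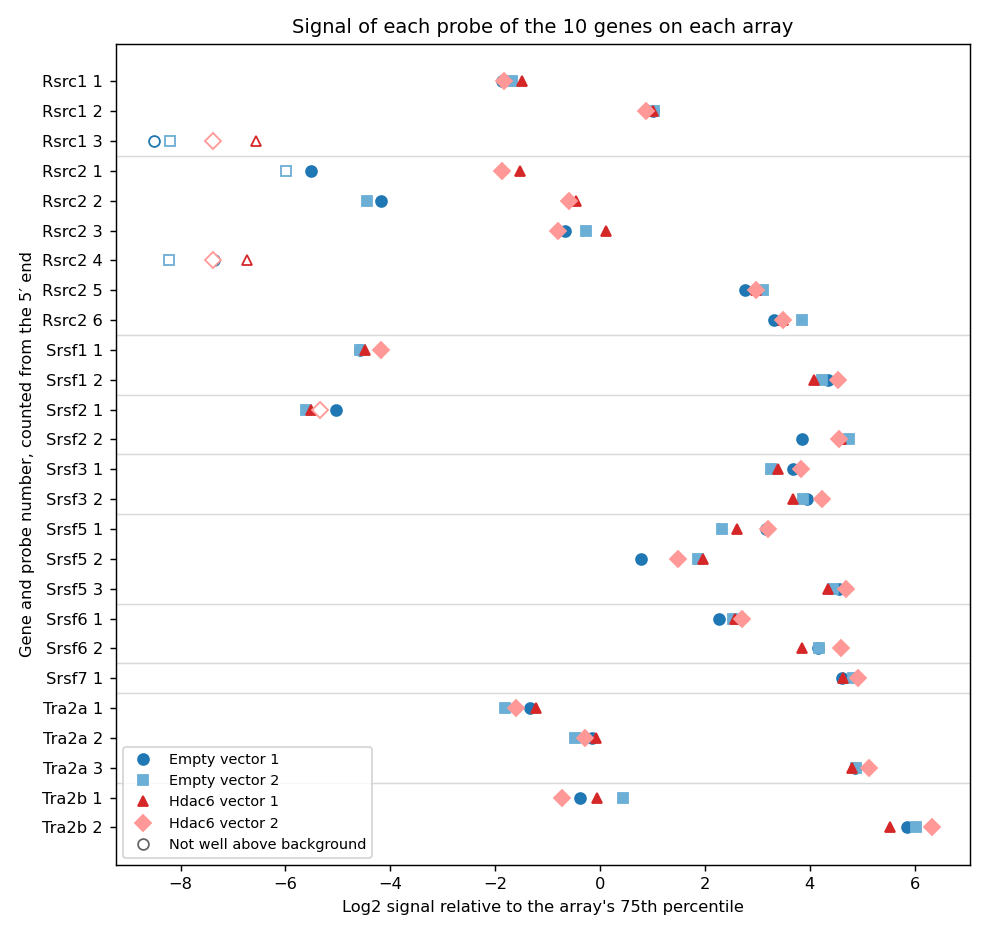
Log2 signal over the array's 75th percentile (horizontal axis) of the 26 probes of the 10 genes (vertical axis, numbered from the 5′ end), 1 point per array, open where not well above background. Among the probes that were tested, the first 2 of Rsrc2 show the widest gaps between the empty vector arrays (blue) and the Hdac6 vector arrays (red).

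Among the SR proteins proper, Srsf1 encodes the factor first purified as ASF/SF2, which acts in constitutive and alternative splicing. Its main probe, at chr11:87864550-87864609, read 4.34 and 4.23 with the empty vector, against 4.08 and 4.53 with the Hdac6 vector, or 1.01-fold (95% interval 0.685 to 1.50). Its other probe is shown because it reads a different transcript, XR_388324, at chr11:87860607-87860666. Capitals mark 42 bases that are also the first bases of the RefSeq promoter window of Srsf1 (GRCm38.p6), a window that opens 250 bases before the gene's start.
Srsf1 probe 1: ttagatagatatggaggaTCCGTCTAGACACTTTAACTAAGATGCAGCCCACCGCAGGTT

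This upstream probe was dim but detected on all 4 arrays, reading -4.59 and -4.58 with the empty vector, against -4.48 and -4.17 with the Hdac6 vector. Both Hdac6 vector arrays were above both empty vector arrays, by a small step next to the gap of 0.31 between the former, and the fold of 1.20 (95% interval 0.705 to 2.03) did not pass. Srsf2 encodes SC35, the classic marker of nuclear speckles. Its bright probe read 3.86 and 4.74 against 4.59 and 4.55 (1.20-fold, interval 0.742 to 1.95). Here empty vector 1 alone was low, and the other 3 arrays were alike. Its dim 5′ probe, listed under ENSMUST00000177429, read -5.04 and -5.61 against -5.51 and -5.35 (0.930-fold) and was not well above background on Hdac6 vector 2. Srsf3, the smallest SR protein, which also acts in mRNA export, was read by probes at 3.68 and 3.26 against 3.39 and 3.83 (1.10-fold), and at 3.94 and 3.87 against 3.67 and 4.22 (1.03-fold). In both cases the Hdac6 vector arrays lay on either side of at least 1 empty vector array.

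Srsf5, which encodes SRp40, offered a contrast between a probe that crosses a junction and a probe inside the stretch skipped there. Its probes are printed for that reason. They lie on the plus strand of chromosome 12 (mm9).
Srsf5 probe 1, chr12:82047706-82048355: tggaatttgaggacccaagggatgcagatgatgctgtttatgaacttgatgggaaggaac
Srsf5 probe 2, chr12:82047730-82047789: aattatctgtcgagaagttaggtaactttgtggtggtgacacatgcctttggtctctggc
Srsf5 probe 3, chr12:82050878-82050937: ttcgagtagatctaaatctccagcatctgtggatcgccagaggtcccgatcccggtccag

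Probe 1 spans 650 genomic bases and skips 590, so it reads a junction of NM_001079695. Probe 2 starts 24 bases after it, lies inside the skipped stretch and is listed under ENSMUST00000151036. Whether probe 2 lies in an exon or an intron of the mm9 gene model was not analysed here. The longest run of bases that these probes have in common is 5. The junction probe read 3.16 and 2.33 with the empty vector, against 2.60 and 3.19 with the Hdac6 vector (1.11-fold, 95% interval 0.666 to 1.86). The probe in the skipped stretch read 0.77 and 1.86 against 1.96 and 1.49 (1.33-fold, interval 0.755 to 2.35). Where the junction probe was high, on empty vector 1 and Hdac6 vector 2, the other was low, whichever vector the cells had received. The junction probe minus the other was 2.39 and 0.47 on the empty vector arrays and 0.64 and 1.70 on the Hdac6 vector arrays, so this difference varied more within each group than between them. Probe 3, farther along the mRNA, read 4.55 and 4.43 against 4.35 and 4.68 (1.02-fold, interval 0.699 to 1.48).

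Srsf6 encodes SRp55, and Srsf7 encodes 9G8, an SR protein with a zinc knuckle. The first Srsf6 probe read 2.27 and 2.54 with the empty vector, against 2.58 and 2.70 with the Hdac6 vector. Its groups did not overlap, but the step between them was smaller than the gaps within each group, and 1.18-fold (95% interval 0.816 to 1.70) did not pass. The second, at 4.16 and 4.17 against 3.85 and 4.60, had its Hdac6 vector arrays on either side of the empty vector arrays (1.04-fold, interval 0.667 to 1.63). The Srsf7 probe read 4.61 and 4.82 against 4.63 and 4.91, or 1.04-fold (interval 0.711 to 1.51).

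Tra2a and Tra2b are the mammalian relatives of the fly sex determination factor Transformer-2, bind enhancers rich in GAA and act beside the SR proteins. Tra2a was read by 3 probes over 19.9 kb. The first, at -1.35 and -1.82 against -1.23 and -1.61, and the second, at -0.15 and -0.47 against -0.07 and -0.29, come from cDNA clones listed under the gene and were at 1.12-fold and 1.10-fold. The third, which reads the RefSeq mRNA NM_198102, was at 4.87 on each empty vector array and at 4.81 and 5.13 with the Hdac6 vector, or 1.07-fold (95% interval 0.735 to 1.56). All 3 overlapped between the groups, and their log2 fold changes lay within a range of 0.07. The 5′ Tra2b probe, listed under ENSMUST00000160579, read -0.39 and 0.43 against -0.06 and -0.73. It had the lowest fold among the 9 genes, 0.750, with an interval of 0.431 to 1.31 that covers no change. The Tra2b probe of the RefSeq mRNA read 5.86 and 6.02 against 5.52 and 6.32 (0.988-fold, interval 0.615 to 1.59), and Hdac6 vector 1 and 2 were its lowest and highest arrays.

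Rsrc1 encodes SRrp53, an SR-related protein that acts in constitutive and alternative splicing. Its first probe, at chr3:66798460-66798519, read -1.87 and -1.68 with the empty vector, against -1.49 and -1.84 with the Hdac6 vector (1.08-fold). The second, at chr3:66886473-66886532, read 1.02 and 1.03 against 1.01 and 0.87, or 0.947-fold (95% interval 0.654 to 1.37). Its groups were apart by less than the gap of 0.14 between the Hdac6 vector arrays. The third, of a cDNA clone far downstream, was not well above background on any array. Unlike in Rsrc2, the 2 tested Rsrc1 probes gave nearly the same answer although 88.0 kb lie between them.

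The rest of the splicing machinery was read through 7 lists with 158 genes, of which 153 had a tested probe, taken as the brightest tested probe of each gene. In none of the lists did a gene pass, up or down. Of their 377 tested probes 0 passed (limma, adjusted p = 1.00 for the smallest in each list). On the array 4 of 35214 passed (0.0114%), and beside so low a share 0 of 377 is no result about these genes. Before adjustment, 5 of the 377 had a limma p below 0.05, as did 648 of the 35214. The groups did not overlap for 72 of the 377, beside 25.1% of all tested probes. Over the lists 57 genes were higher and 96 lower with the Hdac6 vector, with a median log2 fold change of -0.05, beside 11879 higher and 11617 lower of 23496 genes on the array and a median of 0.00.

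Among the other SR proteins, 1 of 4 tested genes was higher, with Srsf10 at 1.04-fold and Srsf11 at 0.956-fold as the ends of the range, Srsf4 at 0.996-fold and Srsf9 at 0.990-fold. Of 11 kinases, phosphatases and importers of SR proteins, 4 were higher and 7 lower (median log2 -0.09), from Prpf4b, a kinase of the spliceosome, at 0.724-fold and Clk3 at 0.835-fold to Ppm1g at 1.22-fold and Srpk3, an SR protein kinase of muscle, at 1.30-fold. SR-related cofactors, the list to which Rsrc1 and Rsrc2 are nearest in kind, had 6 of 29 tested genes higher and 23 lower (median log2 -0.11). Their lowest were Acin1, an SR-rich protein of the exon junction, at 0.613-fold (95% interval 0.389 to 0.966) and Thrap3 at 0.762-fold (0.524 to 1.11), and their highest Arglu1 at 1.10-fold and Luc7l at 1.09-fold. Acin1 read 1.52 and 2.18 with the empty vector, against 1.33 and 0.96 with the Hdac6 vector, without overlap, and did not pass.

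Of 30 hnRNP genes, whose products often act opposite to SR proteins, 13 were higher and 17 lower (median log2 -0.02, of the opposite sign with normexp or quantile normalization). They ran from Ptbp3 at 0.794-fold and Hnrnpa1 at 0.797-fold to Hnrnpul1 at 1.21-fold and Hnrnpk at 1.32-fold. Core spliceosome genes were split evenly, 22 higher and 24 lower of 46 (median log2 -0.01, of the opposite sign with quantile normalization). Here Prpf4 and Snrpa1, at 0.817-fold and 0.820-fold, were lowest, and Prpf19, a ubiquitin ligase of the activated spliceosome, at 1.63-fold (95% interval 1.06 to 2.48) and U2af2, which binds the polypyrimidine tract, at 1.66-fold (0.858 to 3.23) were highest. Regulators of tissue-type splicing had 7 of 18 higher (median log2 -0.11), from Esrp2 at 0.608-fold and Qk at 0.646-fold to Mbnl1 and Esrp1 at 1.12-fold each. In the list for nonsense-mediated decay and the exon junction complex 4 of 15 were higher (median log2 -0.16), from Smg8 at 0.450-fold (0.235 to 0.860) and Smg6 at 0.758-fold to Magoh at 1.02-fold and Eif4a3 at 1.17-fold. Smg8 read -3.35 and -4.40 with the empty vector, against -5.07 and -4.98 with the Hdac6 vector, and with normexp its log2 difference was -0.27 in place of -1.15. None of these genes passed the test (limma adjusted p = 1.00 for each).

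The authors' deposited table gives 1 log2 value per gene name and so merges the probes that differ here. On its own scale its Rsrc2 entry read -0.58 and 0.82 with the empty vector, against 1.19 and 0.75 with the Hdac6 vector, with a mean difference of 0.85. The split between the 5′ pair and the other probes is thus not visible in it. All 40 of the table's values for the 10 genes equalled, within 0.01 and after a constant for each array that sets its scale apart from the levels printed above, the mean of those probes that were well above background on that array, and 31 of them also equalled the mean of all probes. On empty vector 2, where Rsrc2 probe 1 was not well above background, 4 Rsrc2 probes entered the mean, and 5 did on each of the other arrays. The Srsf2 entry read -0.33, -0.16 and -0.19 on both empty vector arrays and Hdac6 vector 1 and 4.65 on Hdac6 vector 2, the array on which its dim probe dropped out, while neither Srsf2 probe had its highest level there. The entries of the other 8 genes differed between the groups by no more than 0.30 in either direction, Tra2b having the largest difference at -0.30.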

How the data were processed

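The study used 4 1-colour Agilent mouse 8x60k arrays, 2 per vector. Per the labels' protocols, total RNA was primed with oligo-dT and Cy3 was built in during in vitro transcription. Per the file headers, spot intensity values were extracted with Feature Extraction 11.5.1.1 (protocol GE1_1105_Oct12), background-subtracted and not normalized between arrays, and positions are in mm9 (NCBI37), 1-based. The authors also deposited a table of log2 values with 37060 rows. How it was made: not given in the sources used here. For 25183 names with 1 probe each array's column lay at a fixed distance from its log2 processed intensity (within 0.01 in at least 99.96% of rows), and its column medians were -3.78 and -3.67 (empty vector) and -3.71 and -3.68 (Hdac6 vector).

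Log2 processed intensities of 59305 spots that are not controls (of 62976) were averaged per probe and scaled to each array's 75th percentile. A probe was tested if well above background on both arrays of at least 1 group. The groups were compared with limma 3.58.1 in R 4.3.3 (lmFit, eBayes with trend, two-sided, Benjamini-Hochberg over 35214 probes, threshold 0.05), with 2 residual degrees of freedom and 6.98 from the shared spread. Fold changes are Hdac6 vector over empty vector, with 95% intervals of the fit. The 10 genes were matched to RefSeq names and promoter windows by symbol, 10 of 10.

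The members, lists and tests were chosen with earlier results of these data known. Named are all members, the 2 highest and 2 lowest genes per splicing list, genes within 100 kb of Rsrc2 and the 6 most alike profiles. Alternatives were normexp (offset 50), median scaling, quantile normalization, no filter on dim probes, no trend, replicate blocks, the authors' table and each array left out. No member spot was saturated (0 of 104 spot values), and 3 of 104 carried a flag for uneven background.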

Additional observations from a re-analysis of the deposited data

How the results depend on the processing

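The mean log2 fold change of the Rsrc2 5′ pair exceeded that of the 3 other tested Rsrc2 probes by 3.89. This excess was 2.10 with normexp and 3.49 to 4.28 with an array left out (lowest without empty vector 2, highest without empty vector 1). The authors' table merges the probes and gives no such excess. Its single Rsrc2 entry differed by 0.85 between the groups, which is another quantity. The range over Rsrc2 probes, 4.15, was 2.52 with normexp and 3.65 to 4.65 with an array left out. The number of probes passing over the array, 4, depended on the setting: 32 with normexp, 0 with median scaling (727 with an unadjusted limma p under 0.05), 2 with quantile normalization, 2 with no trend, and 0 to 310 with an array left out (0 without Hdac6 vector 2, 2 without Hdac6 vector 1, 20 without empty vector 1 and 310 without empty vector 2). Of the 2 probes of the Rsrc2 pair, 2 passed in the main fit, with normexp and with no trend. With quantile normalization 1 passed, and with median scaling 0. The pair was selected on this same contrast, so its passes repeat the selection and are no test of it. The counts with an array left out come from fits with 1 array in a group, and are not counts of the Rsrc2 pair. With the replicate number as a block 22 probes of the array passed. The labels do not say that the numbers pair the arrays, and same-numbered arrays deviated in opposite ways (r = -0.353 across probes). With the numbers crossed, a setting chosen after seeing the data, 18 passed. Of the splicing lists' probes 0 to 5 passed with an array left out (5 without empty vector 2). Of 264 recomputed member log2 fold changes 3 moved by more than the spread between replicates and 0 called values changed sign. The 2 arrays per group and the dim signal of Rsrc2 probes 1 and 4 limit these values.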
